A study of Mus musculus with 6 samples.

Results

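Spi1, Gfi1, Runx1, Myb, Myc, Rara, Ikzf1 and Lef1 encode transcription factors that act in myeloid progenitors and in the commitment to granulocytes, and their mRNA levels were followed across the 6 libraries of a CSF3R mutant series. The genes were chosen by name, as rows of the deposited gene table whose symbol equals that of a listed factor, leaving out the C/EBP family. All 8 of 8 had a row among the 23417 rows with a gene symbol. Kit-positive bone marrow cells of wild-type C57BL/6 mice were cultured overnight with mouse SCF, IL-3, IL-6 and FLT3, transduced with retrovirus, sorted for positive cells and grown overnight in the same cytokines before RNA was taken. There was 1 library for each of 6 constructs: an empty control vector, the cytoplasmic truncations W791 and Q741 of CSF3R, the membrane-proximal mutant T618I, and T618I combined with Q741 or with W791. The design text of the series calls T618I and its combinations leukemogenic and the truncations alone not. All groups share the cytokines, the transduction and the sort, and no construct among them is the unmutated receptor, so the vector comparison mixes the presence of an introduced receptor with its mutation. The labels name no separate animals or cultures of a construct, and every p-value below measures the spread between different constructs.

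CSF3R is the receptor for granulocyte colony-stimulating factor, which drives neutrophil production through JAK kinases and STAT proteins. In marrow progenitors PU.1 (encoded by Spi1) supports both monocytes and granulocytes, and GFI1, a zinc finger repressor, shifts the balance towards granulocytes. RUNX1, MYB and Ikaros (Ikzf1) act in early progenitors, MYC drives growth and ribosome production, RARA is the retinoic acid receptor whose fusion with PML causes acute promyelocytic leukaemia, and LEF1 carries Wnt signals and is low in severe congenital neutropenia in humans.

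Levels were given as FPKM, fragments scaled to transcript length and to sequencing depth. Where 6 values follow each other, vector comes first, then the truncations W791 and Q741, then T618I alone and T618I joined to Q741 and to W791. Over the 6 libraries Spi1 lay between 137 and 207 FPKM, Ikzf1 between 34.9 and 57.0, Myc between 36.6 and 56.6, Myb between 32.1 and 52.6, Runx1 between 20.0 and 30.7, Rara between 14.8 and 45.6 and Gfi1 between 9.12 and 20.2. Lef1 stayed at or below 0.0324 FPKM. Spi1 was thus the most abundant of these factor mRNAs in each library. Among the 3 libraries without T618I the 7 expressed genes differed by between 0.10 (Runx1) and 0.25 (Gfi1 and Rara) on the log2(FPKM + 1) scale, where the median gene spanned 0.16. Among the 3 T618I-containing libraries they spanned between 0.43 (Gfi1) and 1.56 (Rara), against a median of 0.49 over all 11188 genes tested.

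**Figure D1:**
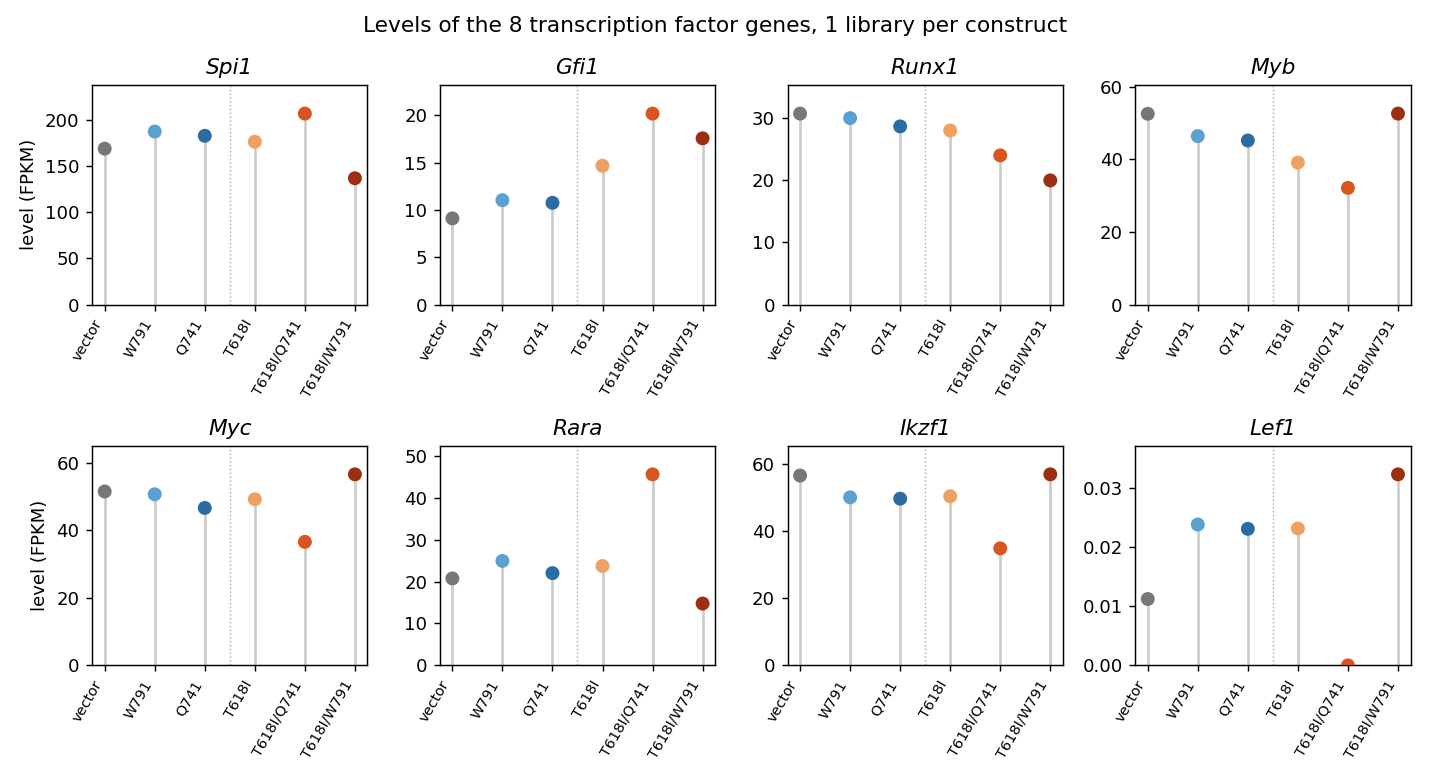
Level of each gene in FPKM (y axis, from 0, a separate range per gene) in the 6 libraries (x axis), 1 point per library; the dotted line separates libraries without and with T618I. Gfi1 is at 14.7 FPKM or more in all T618I-containing libraries and at 11.04 or less in the others, while Rara ranges from 14.8 to 45.6 within the T618I-containing libraries.

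A pair of group comparisons was fitted with limma on log2(FPKM + 1) across 11188 genes that reached 1 FPKM in 2 libraries, a filter that 7 of the 8 genes passed. T618I-containing libraries (n = 3) were set against truncations (n = 2), and libraries with T618I (n = 3) against those without, vector included (n = 3). At an adjusted p below 0.05, 0.179% of genes were higher and 0.0179% lower in the former comparison, and 0.67% were higher and 0.197% lower in the latter. Of the 7 genes, 0 passed in either direction in both comparisons, and at unadjusted p below 0.05 only Gfi1 was counted, as higher, in both. At that unadjusted limit 465 of the 11188 genes were higher and 544 lower in the former comparison. In the latter 680 were higher and 1096 lower, the background for the unadjusted counts of the lists below. The median difference of the 7 genes was -0.10 in the former and -0.08 in the latter, beside -0.07 and -0.08 for all genes. Differences between 2 single libraries have no replicate check and are described by a 2-fold limit without a test.

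Averaged over constructs, markers of maturing neutrophils and of erythroid cells were higher with T618I. Of 8 marker genes of maturing neutrophils 8 had a difference above 0 between libraries with and without T618I, 5 passed the test, and their summed level was 2340 to 3360 FPKM without T618I and 19200 to 34400 with it. Within single pairs, 6 of these 8 were above 0 for T618I against vector, where the lowest difference was -1.04. For T618I/Q741 against Q741 8 were above 0, and for T618I/W791 against W791 7 were, with a lowest difference of -0.24. Of 6 erythroid markers 6 were above 0 with against without T618I and 2 passed, with sums of 10.7 to 18.9 against 131 to 584 FPKM. Of 7 monocyte and macrophage markers 0 were above 0, with sums of 1010 to 1070 against 347 to 788 FPKM. Of 6 lymphoid-primed and plasmacytoid dendritic markers 0 were above 0, with sums of 90.4 to 205 against 41.3 to 92.2 FPKM, and Siglech and Ly6d were listed at 0 with T618I/W791. None of the markers of monocytes, lymphoid-primed cells or mast cells passed in either comparison. At unadjusted p below 0.05 in limma with against without T618I, 4, 3 and 3 were lower and 0, 0 and 1 higher. Against the truncations alone 2 neutrophil and 0 erythroid markers passed. Mast cell and basophil markers summed to 1740 to 1870 FPKM without T618I, to 2210 with T618I alone and to 617 and 541 with the combinations. Of these 7 markers, Mcpt1 and Mcpt4 were above 0 with against without T618I and the others below. Mcpt1, the 1 counted as higher, was at 0.147, 0.499 and 0.354 FPKM with vector, W791 and Q741. It was at 444, 65.4 and 12.3 with T618I, T618I/Q741 and T618I/W791. Prss34 went the other way, at 393, 371 and 363 against 78.7, 12.6 and 31.1 FPKM. Early neutrophil granule markers summed to 1760 to 2300 against 2010 to 2440 FPKM, and stem and progenitor surface markers to 541 to 594 against 250 to 776. B lymphoid markers summed to at most 14.5 FPKM, and T and NK cell markers to at most 1.01. The part of these markers in the results on the transcription factors was not tested, and in RNA from bulk cells fewer cells of a type and less RNA per cell cannot be told apart.

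Gfi1 was higher in every library with T618I than in any library without it, but missed the threshold. Gfi1 (ENSMUSG00000029275.18, mm10 chromosome 5, 107716657 to 107726036, minus strand) was at 9.12 FPKM in vector cells, at 11.04 and 10.8 in the truncations W791 and Q741, and at 14.7 with T618I alone, 20.2 in T618I/Q741 and 17.6 in T618I/W791. The groups did not overlap. The means were 17.5 ± 2.76 (SD, n = 3) against 10.3 ± 1.04 FPKM (SD, n = 3), a log2 difference of 0.70 ± 0.15 (SE), or 1.63-fold, with unadjusted p = 0.00229 and adjusted p = 0.0936 by limma, which misses the threshold. The exact two-sided permutation test gave p = 0.1, the smallest that 3 against 3 allows. Against the truncations alone, at 10.9 ± 0.196 FPKM (SD, n = 2), the log2 difference was 0.62 ± 0.17 (SE, limma adjusted p = 0.388). Libraries did not overlap, in the higher direction, for 8.04% of all genes with vector included and for 9.22% against the truncations.

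Within single pairs Gfi1 differed by 0.63 on the log2 scale between T618I and vector, by 0.85 between T618I/Q741 and Q741 and by 0.63 between T618I/W791 and W791. None reached 2-fold, which 2.73%, 4.74% and 2.34% of genes did in the higher direction in these pairs. After median-ratio scaling the difference between T618I/Q741 and Q741 was 1.03, just past 2-fold. The truncations alone lay slightly above vector, by 0.25 for W791 and 0.22 for Q741. Gfi1 shares 101 exonic bases with an antisense transcript in the GENCODE M21 annotation, and whether strand was used in quantification was not stated in the labels.

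Runx1 was lower in every library with T618I than in any without it, by small steps. Runx1 (ENSMUSG00000022952.17, chromosome 16, 92601466 to 92826149, minus strand) was at 30.7, 30.0, 28.7, 28.0, 24.0 and 20.0 FPKM. T618I and Q741 were nearly level, and the lowest value came from T618I/W791. The log2 difference with against without T618I was -0.31 ± 0.14 (SE, limma adjusted p = 0.348; exact permutation p = 0.1), and against the truncations -0.29 ± 0.18 (SE, limma adjusted p = 0.762). Without T618I/W791 the former was -0.19. Libraries did not overlap in the lower direction for 18.2% of all genes with vector included and for 21.1% against the truncations, so that pattern was common. After median-ratio scaling, which raises the T618I/Q741 values most, the Runx1 groups overlapped, and non-overlapping genes over the table numbered 1349 as higher and 1283 as lower in place of 899 and 2034.

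Cbfb, which encodes the partner subunit that RUNX proteins need to bind DNA firmly, was at 55.3, 52.7 and 59.7 FPKM with vector, W791 and Q741 and at 47.0, 31.9 and 49.3 with it (limma adjusted p = 0.352). It was chosen after its values were seen. Runx2, a relative of Runx1, was at 16.6, 9.68 and 9.90 FPKM without T618I and at 6.94, 8.81 and 5.80 with it (adjusted p = 0.251), and its highest value was that of the vector library.

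Rara separated the T618I combinations from each other. Rara (ENSMUSG00000037992.16, chromosome 11, 98927818 to 98974942, plus strand) was at 20.7 FPKM in vector cells, 24.9 and 22.0 in the truncations and 23.7 with T618I alone, but at 45.6 in T618I/Q741 and 14.8 in T618I/W791. T618I alone lay within the range of the libraries without T618I, and the combinations were the highest and the lowest of the 6. T618I/Q741 exceeded T618I/W791 by 1.56 on the log2 scale, a ratio of 3.09, where 5.88% of genes were 2-fold or more higher and 7.58% lower, and 2.76% differed at least as much as Rara in either direction. Adding T618I to Q741 gave a difference of 1.02, past 2-fold, where 4.74% of genes were 2-fold or more higher. That difference stayed past 2-fold with median-ratio scaling and with a pseudocount of 0.1. At equal totals it was 0.86, below the 2-fold limit. Adding T618I to W791 gave -0.72, where 4.26% of genes were 2-fold or more lower. Of the 7 genes, 0 were 2-fold or more lower on adding T618I to vector, Q741 or W791, where 1.27%, 1.89% and 4.26% of all genes were. Over the groups these opposite values left 0.16 ± 0.37 (SE, limma adjusted p = 0.911) with against without T618I and 0.11 ± 0.45 (SE, adjusted p = 0.997) against the truncations.

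**Figure D2:**
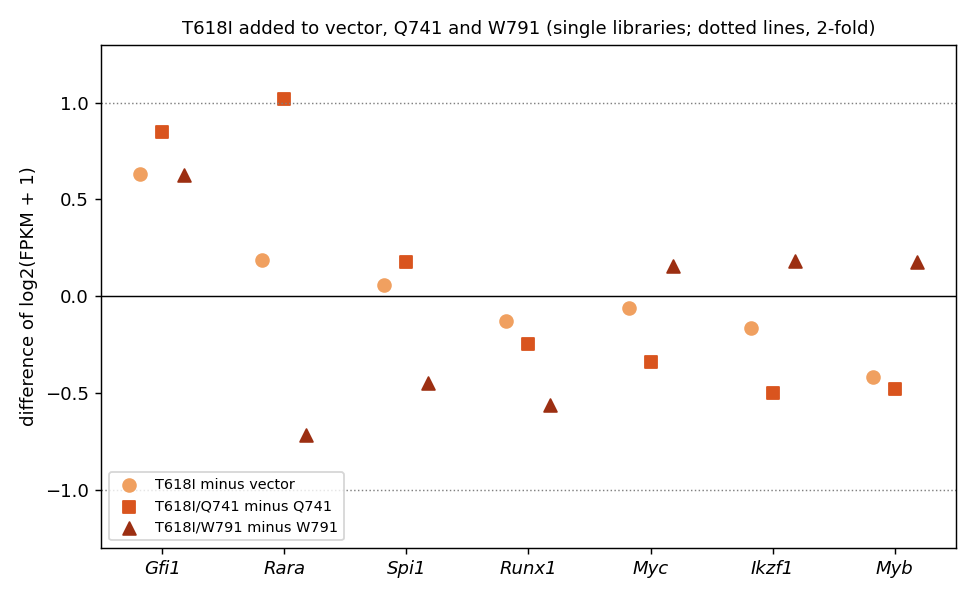
Difference of log2(FPKM + 1) (y axis) when T618I was present, for 7 genes (x axis), with circles for T618I minus vector, squares for T618I/Q741 minus Q741 and triangles for T618I/W791 minus W791, 1 library on each side. Gfi1 is above 0 and Runx1 below 0 in all pairs, Rara reaches 1.02 with Q741 and -0.72 with W791, and Myb, Myc and Ikzf1 are below 0 with Q741 and above 0 with W791.

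Myb, Ikzf1 and Myc shared an order at the extremes, lowest with T618I/Q741 and highest with T618I/W791. Myb (ENSMUSG00000019982.15, chromosome 10, 21124935 to 21160984, minus strand) was at 52.5, 46.4, 45.2, 39.1, 32.1 and 52.6 FPKM. T618I and T618I/Q741 thus lay below all libraries without T618I, while T618I/W791 was level with vector. Ikzf1 (ENSMUSG00000018654.17, chromosome 11, 11685003 to 11772926, plus strand) was at 56.6, 50.1, 49.7, 50.4, 34.9 and 57.0 FPKM. T618I/Q741 alone lay apart from the other libraries, which ranged from 49.7 to 57.0. Myc (ENSMUSG00000022346.15, chromosome 15, 61985391 to 61990374, plus strand) was at 51.5, 50.7, 46.6, 49.2, 36.6 and 56.6 FPKM.

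T618I/Q741 was below T618I/W791 by -0.69 for Myb, -0.69 for Ikzf1 and -0.62 for Myc on the log2 scale, where the median of all genes was -0.12. After median-ratio scaling, which brings that median to 0.04, the differences were -0.51, -0.51 and -0.43. About 28.2%, 28.3% and 33.1% of all genes differed at least as much between these libraries, so differences of this size were common. With against without T618I the log2 differences were -0.24 ± 0.19 for Myb (SE, limma adjusted p = 0.623), -0.16 ± 0.19 for Ikzf1 (SE, adjusted p = 0.780) and -0.08 ± 0.17 for Myc (SE, adjusted p = 0.896), and the exact permutation p was 0.4, 0.9 and 0.8. Without T618I/W791, the highest Myb value, the Myb difference was -0.42, with no overlap between groups (limma adjusted p = 0.145). In that setting 4084 of 11114 genes did not overlap in the lower direction, so the pattern was common. Without T618I/Q741 the Myb difference was -0.08. Myb shares 559 exonic bases with an antisense transcript in the annotation.

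Spi1 (ENSMUSG00000002111.8, chromosome 2, 91082390 to 91115756, plus strand) was at 169, 187, 183, 176, 207 and 137 FPKM. The T618I combinations were again the highest and the lowest values, 0.59 apart on the log2 scale, a difference that 35.1% of all genes reached. The log2 difference with against without T618I was -0.07 ± 0.17 (SE, limma adjusted p = 0.916), and it was 0.02 after median-ratio scaling.

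Lef1 (ENSMUSG00000027985.14, chromosome 3, 131110471 to 131224356, plus strand) was at 0.0112 FPKM in vector cells, at 0.0239 and 0.0231 in the truncations, at 0.0232 with T618I alone and at 0.0324 in T618I/W791, and it was listed at 0 in T618I/Q741. At the depths approximated from the table the values above 0 equal between 1.6 and 2.4 fragments over its longest transcript of 3656 bases. Any difference between constructs was not detectable at this depth. Its relative Tcf7 was at 1.83, 1.73 and 1.22 FPKM without T618I and at 1.39, 1.58 and 0.451 with T618I, T618I/Q741 and T618I/W791.

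Promoter sequences are shown for Gfi1, Runx1 and Rara, whose levels did not overlap between groups or spanned most, and for Myb and Ikzf1, which moved alike. RefSeq (GRCm38.p6) had entries for 6 of the 8 genes. Those shown are the 250 bases upstream of a transcript start, 5′ to 3′ on the gene's strand, at the outermost listed start whose window holds no exon of the gene. Capitals mark matches on either strand to the letters TGTGGT or TGCGGT (RUNX), GAGGAA (PU.1), AAATCA (GFI1), CACGTG (E-box, the kind MYC binds), CTTTGA (LEF1/TCF), TTCNNNGAA (STAT), TTGCNNNAA (C/EBP), AGGTCA (the repeat unit of retinoic acid response elements) and TGGGAA (Ikaros).
Gfi1 (chr5:107724344-107724593, - strand): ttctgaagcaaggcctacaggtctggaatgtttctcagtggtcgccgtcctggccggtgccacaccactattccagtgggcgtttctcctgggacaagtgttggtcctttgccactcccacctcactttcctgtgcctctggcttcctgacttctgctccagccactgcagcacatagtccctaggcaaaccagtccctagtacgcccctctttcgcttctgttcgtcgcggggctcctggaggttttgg
Runx1 (chr16:92697330-92697579, - strand): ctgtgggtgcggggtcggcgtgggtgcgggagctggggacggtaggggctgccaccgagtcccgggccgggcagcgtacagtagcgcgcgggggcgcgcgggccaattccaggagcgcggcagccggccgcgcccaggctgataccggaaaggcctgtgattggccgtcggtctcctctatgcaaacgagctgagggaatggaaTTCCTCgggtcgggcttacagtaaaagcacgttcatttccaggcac
Rara (chr11:98937446-98937695, + strand): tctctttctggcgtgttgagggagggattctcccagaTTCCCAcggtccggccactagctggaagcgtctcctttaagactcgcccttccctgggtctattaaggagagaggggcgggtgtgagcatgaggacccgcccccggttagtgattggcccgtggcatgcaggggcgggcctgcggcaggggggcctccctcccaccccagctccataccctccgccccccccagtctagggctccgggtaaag
Myb (chr10:21160985-21161234, - strand): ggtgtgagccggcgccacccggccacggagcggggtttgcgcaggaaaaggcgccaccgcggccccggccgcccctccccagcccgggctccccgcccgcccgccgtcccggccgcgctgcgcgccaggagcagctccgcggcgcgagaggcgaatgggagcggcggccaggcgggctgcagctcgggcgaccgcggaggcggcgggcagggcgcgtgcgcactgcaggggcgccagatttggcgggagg
Ikzf1 (chr11:11685675-11685924, + strand): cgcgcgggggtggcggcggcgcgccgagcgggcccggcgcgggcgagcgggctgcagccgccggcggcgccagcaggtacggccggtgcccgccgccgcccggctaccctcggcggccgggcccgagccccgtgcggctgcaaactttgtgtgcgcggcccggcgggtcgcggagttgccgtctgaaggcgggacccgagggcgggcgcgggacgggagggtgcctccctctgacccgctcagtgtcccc

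The Runx1 window held the PU.1 letters, present in 23.3% of all 32851 promoter windows of this length, and the Rara window held the Ikaros letters (21.6%). Of the exon-free windows at later starts, not shown, a Rara window held the RUNX (18.6%) and STAT (7.02%) letters, and another Rara window and an Ikzf1 window held the GFI1 letters (12.4%). None of the marked letters occurred in the Gfi1, Myb and Ikzf1 windows shown, which says only that these letters are not in these windows. A search for AACNG, the core that MYB binds, was not marked since 74.2% of windows held it. The windows of Myb and Ikzf1 were rich in G and C, at 81.2% and 82.0%, against a median of 52.4% over all windows, and that of Gfi1 was at 57.6%. The data give a level per gene and do not tell which start was used.

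Genes that MYC is known to activate, mainly for ribosome production and nucleotide and polyamine synthesis, had a median difference between the T618I combinations of -1.48 on the log2 scale, where Myc itself had -0.62. Of 23 such genes, all tested, 20 were 2-fold or more lower with T618I/Q741 than with T618I/W791, where 7.58% of all genes were. All 23 were lower, where 41.9% of all genes were above 0. The differences of the 23 genes lay between -1.91 and -0.14, and after median-ratio scaling 18 were past 2-fold, with a median of -1.29. The median of all genes was then 0.04, and the share of all genes past 2-fold after scaling was not counted. On adding T618I to Q741 the median was -0.69, with 21 of 23 below 0, and on adding it to W791 it was 0.76, with 22 of 23 above 0. Of all genes, 34.5% were above 0 in the former pair, with a median of -0.16, and 49.7% in the latter, with a median of -0.004. On adding T618I to vector the 23 genes had a median of -0.03, beside -0.07 for all genes.

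Odc1, the rate-limiting enzyme of polyamine synthesis, was at 46.7, 50.5, 45.8, 66.5, 46.0 and 137 FPKM. Srm, which encodes spermidine synthase, was at 44.7, 51.8, 48.5, 54.0, 31.4 and 100.4 FPKM, and Ncl, which encodes nucleolin of the nucleolus, at 93.8, 87.2, 88.6, 91.9, 56.3 and 186 FPKM. The T618I/W791 library was the highest and T618I/Q741 close to or at the lowest for these. Shmt2, a mitochondrial enzyme of serine and folate metabolism, was at 89.9, 79.1, 76.2, 66.6, 37.8 and 79.2 FPKM, so that here T618I/Q741 was low without T618I/W791 being high. Cdk4 (96.1 against 177 FPKM) and Ccnd2 (16.0 against 33.5 FPKM), cell cycle genes, were likewise lower with T618I/Q741 than with T618I/W791. With against without T618I 0 of the 23 passed in either direction by limma, 0 had unadjusted p below 0.05, and the median was -0.01. Between the same libraries the summed markers were 34400 and 26400 FPKM for maturing neutrophils, 176 and 584 for erythroid cells and 760 and 347 for monocytes, and the part of these cells in the difference was not tested.

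Among the partner proteins of the 8 factors, the MYC antagonist Mxd1 rose with T618I. MXD1 and MXI1 compete with MYC for its partner MAX and repress its targets. Mxd1 was at 20.4, 25.1 and 22.0 FPKM without T618I and at 61.4, 74.5 and 63.1 with it, and the groups did not overlap. The log2 difference with against without T618I was 1.52 ± 0.13 (SE, limma adjusted p = 0.00645), and against the truncations alone it was 1.45 ± 0.16 (SE, adjusted p = 0.0629). The call was lost with vector left out (adjusted p = 0.063) or Q741 left out (0.0697). Mxi1 was at 9.54, 8.99 and 8.76 FPKM without T618I and at 15.1, 27.5 and 14.9 with T618I, T618I/Q741 and T618I/W791 (0.94 ± 0.23, SE, adjusted p = 0.128). The related genes Mxd3, Mxd4 and Mnt of the same list went the other way. Their differences were -0.45 ± 0.17, -0.47 ± 0.21 and -0.18 ± 0.16 (SE, limma adjusted p = 0.271, 0.342 and 0.682). Mxd3 and Mnt were chosen after their values were seen. Max, which encodes the partner that MYC needs to bind DNA, was at 44.3, 43.6, 45.6, 43.4, 35.3 and 44.6 FPKM and was chosen after its values were seen.

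**Figure D3:**
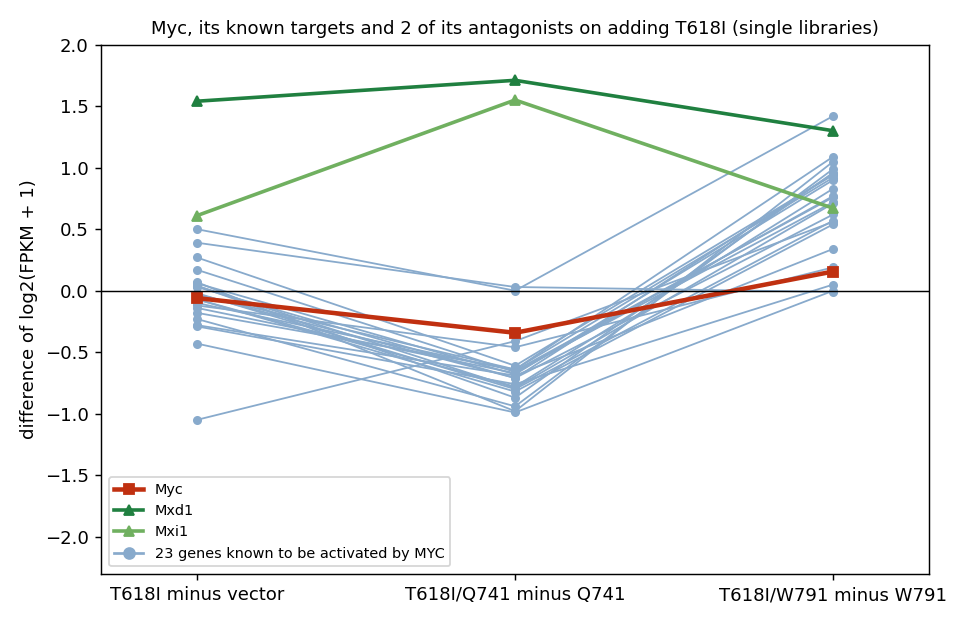
Difference of log2(FPKM + 1) (y axis) when T618I was present, in the pairs with vector, Q741 and W791 (x axis), with 1 thin line per gene for 23 genes known to be activated by MYC, and thick lines for Myc, Mxd1 and Mxi1. The targets have a median of -0.69 with Q741 and 0.76 with W791, while Mxd1 and Mxi1 are above 0 in all pairs. The related genes Mxd3, Mxd4 and Mnt are not drawn.

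Of the 24 partner proteins and corepressors, all tested, Mxd1 alone passed as higher and 0 as lower (4 lower at unadjusted p below 0.05), 6 were above 0 and the median was -0.12. Libraries did not overlap for 2 of 24 as higher and 5 of 24 as lower, close to the 8.04% and 18.2% of all genes. Mlx, which encodes another partner of the MXD proteins, had a difference of 0.25 ± 0.17 (SE, adjusted p = 0.557). The lowest were Cbfa2t3, a corepressor that joins RUNX1 in a leukaemia fusion family (-0.55 ± 0.19, SE, adjusted p = 0.231), Tle4, a Groucho corepressor used by LEF1 and RUNX proteins (-0.50 ± 0.12, SE, adjusted p = 0.124), and Mxd4 (-0.47 ± 0.21, SE, adjusted p = 0.342).

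Among the relatives of the 8 factors, some were at low levels and some varied between constructs. Of 18 relatives 11 passed the filter and 0 passed the limma test in either direction (2 higher and 2 lower at unadjusted p below 0.05), with 4 of 11 above 0 and a median of -0.11. Mycn, the neural relative of Myc, was at 1.27, 2.497 and 1.40 FPKM with vector, W791 and Q741 and at 6.63, 3.77 and 5.81 with T618I, T618I/Q741 and T618I/W791 (1.23 ± 0.24, SE, adjusted p = 0.0821), and the groups did not overlap. Gfi1b, the relative of Gfi1 that acts in red cell and platelet precursors, was at 6.03, 7.74 and 4.99 FPKM without T618I and at 14.4, 7.59 and 22.6 with it (1.03 log2, adjusted p = 0.238). The value in T618I/Q741 was within the range of the libraries without T618I, and the erythroid marker sums were 131, 176 and 584 FPKM in the libraries with it. Spib, a relative of Spi1 used by B and plasmacytoid dendritic cells, was at 10.4, 3.66 and 3.43 FPKM without T618I and at 2.40, 1.81 and 0.684 with it (-1.29 ± 0.43, SE, adjusted p = 0.215), and vector stood well above both truncations. The retinoic acid receptor gene Rarg was at 13.9, 16.5, 15.5, 13.6, 16.9 and 6.09 FPKM, lowest in the library where Rara was lowest. Tcf7l2, a relative of Lef1, was at 1.04, 2.06 and 2.03 FPKM without T618I and at 1.90, 4.53 and 1.92 with it.

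Genes that the 8 factors are known to control were read from lists chosen with earlier results of these data known. Of 10 genes known to be activated by MYB, 0 passed as higher and 1 as lower, 3 were lower and 0 higher at unadjusted p below 0.05, 4 were above 0 and the median was -0.26. The lower gene was Bcl2, an inhibitor of apoptosis, at 10.7, 8.11 and 7.68 FPKM with vector, W791 and Q741 and at 3.84, 2.55 and 3.08 with T618I, T618I/Q741 and T618I/W791 (-1.24 ± 0.17, SE, limma adjusted p = 0.0367). Its call was lost with vector left out (adjusted p = 0.177), W791 (0.16) or Q741 (0.154) left out, or without the filter on low values (0.0812). Sox4, a progenitor factor, was at 16.4, 8.65 and 6.23 FPKM without T618I and at 4.68, 4.74 and 1.80 with it (adjusted p = 0.209), and Kit, the receptor used for the isolation, at 34.5, 30.1, 23.3, 32.6, 15.1 and 12.6 FPKM. The elastase gene Elane was highest in T618I/Q741, at 714 FPKM, against between 247 and 306 in the other libraries. Prtn3, the proteinase of the same granules, was at 422 to 634 FPKM and Mybl2 at 9.93 to 26.1. Mpo, the peroxidase of these granules and also a neutrophil precursor marker, was at 637, 839 and 801 FPKM without T618I and at 566, 588 and 553 with it (-0.41 ± 0.13, SE, limma adjusted p = 0.210), with no overlap, and was chosen after its values were seen.

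Of 12 genes known to be activated by PU.1, all tested, 0 passed in either direction by limma (1 higher and 2 lower at unadjusted p below 0.05), with 6 above 0 and a median of 0.07. Csf1r, the receptor for the macrophage growth factor, was at 266, 266 and 284 FPKM with vector, W791 and Q741 and at 207, 185 and 87.3 with T618I, T618I/Q741 and T618I/W791 (-0.86 ± 0.32, SE, adjusted p = 0.261). Fcgr1 and Cd14, further monocyte genes, had differences of -0.76 and -0.75, while Itgam, Ncf1 and Ncf4, genes of phagocytes including neutrophils, had 0.41, 0.37 and 0.28 and did not pass. Between T618I/Q741 and T618I/W791, where Spi1 differed by 0.59, 11 of 12 were above 0 with a median of 0.88, and 3 were 2-fold or more higher, where 41.9% of all genes were above 0 and 5.88% were 2-fold or more higher. After median-ratio scaling 8 of the 12 were 2-fold or more higher. That scaling moved the median of all genes from -0.12 to 0.04, and the share of all genes past 2-fold after it was not counted. Csf1r, Cd14 and Emr1 of the 12 are also among the monocyte and macrophage markers. All 7 of those markers were above 0 between T618I/Q741 and T618I/W791 without scaling, with a median of 1.19. The part of these cells in the difference was not tested.

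Of 10 genes known to be repressed by GFI1, 0 passed in either direction by limma (1 higher and 2 lower at unadjusted p below 0.05), with 7 above 0 and a median of 0.13. The 1 higher gene was Gfi1b, whose levels are given above with the relatives (1.03 ± 0.36, SE, limma adjusted p = 0.238). Irf8, a monocyte and dendritic cell factor, was at 83.3, 57.1 and 58.1 FPKM without T618I and at 32.5, 36.9 and 15.6 with T618I, T618I/Q741 and T618I/W791 (-1.26 ± 0.33, SE, adjusted p = 0.144), with no overlap. Ets1 was at 8.36, 7.17 and 6.94 against 4.36, 5.96 and 3.40 FPKM (adjusted p = 0.174) and Hoxa9 differed by -0.27. Cdkn1a, a cell cycle inhibitor, was at 55.2, 84.5 and 77.0 against 87.1, 158 and 93.9 FPKM (adjusted p = 0.342), and Csf1 at 13.1, 17.3 and 14.3 against 27.9, 26.2 and 14.6. Irf8 is also among the monocyte markers above, and Gfi1b among the relatives. Irf8, Ets1, Hoxa9, Egr1, Egr2 and Meis1 are also among the other transcription factors below.

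Of 10 genes known to be induced through retinoic acid receptors only 5 passed the filter, and 0 passed the limma test (0 higher and 1 lower at unadjusted p below 0.05). Tgm2, which encodes a transglutaminase, was at 20.4, 18.4, 18.5, 22.7, 94.0 and 12.7 FPKM, the same extremes as Rara. Cd38 was at 10.5, 14.9, 16.4, 21.1, 28.7 and 13.1 FPKM and the retinal reductase gene Dhrs3 at 36.4, 32.5, 28.5, 53.2, 45.8 and 33.5 FPKM. All 5 were higher with T618I/Q741 than with T618I/W791, 2 of them by 2-fold or more, with a median of 0.82, beside the same 41.9% and 5.88% of all genes. Cyp26a1, the retinoic acid degrading enzyme that responds most directly in many cells, stayed at or below 0.129 FPKM and was chosen after its values were seen.

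Of 10 genes known to be induced through LEF1 or TCF proteins with beta-catenin, Lef1 among them, 3 passed the filter and 0 passed the limma test (0 higher and 1 lower at unadjusted p below 0.05). Ccnd1, which encodes cyclin D1, was at 39.1, 17.8, 17.3, 9.43, 5.53 and 3.54 FPKM (-1.83 ± 0.41, SE, adjusted p = 0.108), with vector above the truncations and these above all T618I-containing libraries. Axin2, the usual readout of this pathway, lay between 0.219 and 0.618 FPKM and was chosen after its values were seen.

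Other transcription factors of progenitors and lineages had a median below that of all genes. Of 22, all tested, 0 passed in either direction by limma. At unadjusted p below 0.05 by limma 1 was higher and 8 were lower, where 680 and 1096 of 11188 genes were. Of the 22, 8 were above 0, and libraries did not overlap for 1 as higher and 9 as lower, where 8.04% and 18.2% of all genes did so. Their median was -0.29 beside -0.08. Nfe2, a factor of red cells and platelets, was at 61.6, 70.1 and 59.2 FPKM with vector, W791 and Q741 and at 93.8, 109 and 110 with T618I, T618I/Q741 and T618I/W791 (0.70 ± 0.12, SE, adjusted p = 0.0656). Tal1, of the same lineages, was at 15.0, 17.9 and 13.6 against 28.9, 14.6 and 36.8 FPKM, and Fli1 at 24.4, 26.1 and 25.4 against 36.2, 26.0 and 34.9. Satb1, a chromatin organiser of lymphoid-primed cells, was at 11.8, 6.15 and 6.05 against 3.78, 2.39 and 0.982 FPKM (-1.44 ± 0.38, SE, adjusted p = 0.140).

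The genes closest in pattern to Gfi1 and Rara, the members that spanned 2-fold or more over the 6 libraries, were found by the root mean square difference between log2(FPKM + 1) profiles centred on their own means, over 10630 genes and 6 libraries. For Gfi1 they were Carhsp1 (0.0608) and Bmpr1a (0.0663). Bmpr1a was at 1.05, 1.31, 1.34, 2.39, 2.99 and 2.85 FPKM. For Rara they were Pold4 (0.0617), Pvrl2 (0.0782) and Map3k9 (0.0915), and Pold4 was at 32.8, 39.0, 34.0, 35.8, 71.5 and 25.9 FPKM. These matches are a description over 6 libraries.

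**Figure D4:**
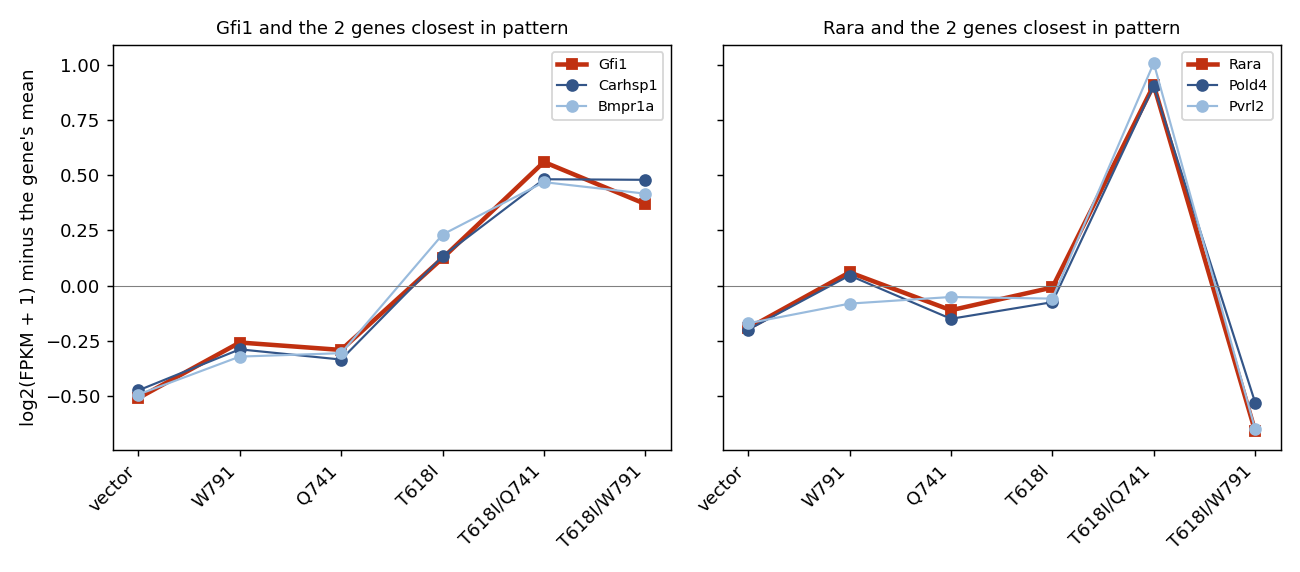
Level of Gfi1 (left) and Rara (right) and of the 2 genes closest to each in pattern, as log2(FPKM + 1) minus the gene's mean over the 6 libraries (y axis), by library (x axis), 1 line per gene. Gfi1 and its neighbours step up in all T618I-containing libraries, and Rara and its neighbours peak in T618I/Q741 and are lowest in T618I/W791.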

How the data were processed

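Stranded mRNA libraries (TruSeq) were sequenced from 6 transduced cell populations, per the labels' protocols. The authors deposited 1 table of gene symbols with 6 columns of values in no stated unit, and what the authors deposited was read as FPKM, which Cufflinks writes. TopHat, Cufflinks and the build mm10 come from the submitters' processing notes; versions, annotation and strand setting were not given in the sources used here. Columns were matched to samples by name, the T618I combinations by the letters of their abbreviations. Of 23444 rows, 27 whose symbol had become a date were left out. Depth is not stated; the steps among low values of 4867 genes with 1 transcript in GENCODE M21 gave fragment totals (in units of 10 to the power of 6) of about 19.5 to 24.5, and 42.7 for vector, and this counting error limits low genes only.

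Values entered as log2(FPKM + 1) without further scaling, so folds understate the change of low genes. Limma 3.58.1 (R 4.3.3) used a mean-variance trend and Benjamini-Hochberg adjustment at 0.05 over 11188 genes, with 3 group means for the comparison with truncations (the lone vector library adds no residual) and 2 for T618I present against absent. The fit was run on simulated data with the same spread in all libraries. In the real data the median range was 0.16 without T618I and 0.49 among T618I-containing libraries. That run therefore does not check the fit at unequal spread. Genes were named by rule: the 8 members, and of each list the 3 highest and 3 lowest differences with against without T618I; others are marked, and some genes the rule names are not reported here. The members, lists and tests were chosen with earlier results of these data known. Alternatives were a pseudocount of 0.1, median-ratio scaling, equal totals, no filter, no trend, each library left out, and the receptor tail as a block.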

Additional observations from a re-analysis of the deposited data

Results flagged for a closer look

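On adding T618I to Q741 and to W791, 5 of the 7 expressed genes moved in opposite directions. The share of all genes that did so was not counted, so 5 of 7 cannot be called more than usual. Of all genes, 34.5% were above 0 in the pair with Q741 and 49.7% in the pair with W791. Several of the steps were small. At least as large a difference was found in 70.8% of all genes for Spi1 with Q741. For Myb, Myc and Ikzf1 with W791 it was found in 66.5%, 70.2% and 65.7%. For Rara it was found in 6.34% with Q741 and 13.3% with W791. The difference between the effects with Q741 and with W791 was not tested, since each pair has 1 library a side. The effect with Q741 minus that with W791, on the log2 scale, was 1.74 for Rara (1.02 against -0.72) and 0.63 for Spi1 (0.18 against -0.45). It was -0.68 for Ikzf1 (-0.50 against 0.18), -0.66 for Myb (-0.48 against 0.18) and -0.50 for Myc (-0.34 against 0.16). The directions stayed opposite for these 5 genes after median-ratio scaling and at equal totals.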

How the results depend on the processing

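Counts of genes over the whole table depended on the libraries included. Against truncations, 20 higher and 2 lower genes became 3 higher without the filter on low values, and with a library left out the counts ran from 2 to 30 higher and from 0 to 5 lower, with 6 higher and 0 lower without W791, 2 and 0 without Q741, and 11 and 1 without T618I. With against without T618I, 75 higher and 22 lower became 41 higher without the filter and 36 lower with the tail as a block, and ran from 20 to 122 higher and from 2 to 65 lower with a library left out; vector, W791 and Q741 left out gave 20, 22 and 21 higher and 2 lower each, T618I/Q741 and T618I/W791 left out gave 121 and 122 higher, and T618I left out gave 65 lower. The tail pairs come from the constructs, and no paired analysis was possible by replicate number because the labels give none. No alternative brought any of the 7 genes past the threshold. Gfi1 stayed above 0 throughout, with adjusted p between 0.0747 and 0.393 for T618I present against absent. Values near 0 turned with the setting. Against truncations, Spi1 was 0.05 without T618I/W791, Myc 0.03 with median-ratio scaling, 0.00 without W791 and 0.12 without T618I/Q741, Rara -0.31 and Ikzf1 0.10 without T618I/Q741. With against without T618I, Spi1 was 0.02 and Myc 0.00 with median-ratio scaling, Spi1 0.09 without T618I/W791, and Myc 0.09, Rara -0.25 and Ikzf1 0.04 without T618I/Q741. The ranges with a library left out were -0.19 to 0.12 (Myc), -0.31 to 0.47 (Rara) and -0.24 to 0.10 (Ikzf1) against truncations, and -0.21 to 0.09 (Spi1), -0.22 to 0.09 (Myc), -0.25 to 0.53 (Rara) and -0.30 to 0.04 (Ikzf1) with against without T618I. For T618I present against absent, Myb ran from -0.42 without T618I/W791 to -0.08 without T618I/Q741. The former had unadjusted p = 0.0146 and adjusted p = 0.145 by limma. Its groups did not overlap, as for 4084 of 11114 genes in the lower direction. Runx1 ran from -0.43 without T618I to -0.19 without T618I/W791. Against truncations Myb ran from -0.36 to -0.01 and Runx1 from -0.40 to -0.17, with the same libraries left out. The cause was not tested. With 1 library per construct, neighbouring constructs in any order of levels cannot be separated by replicate error.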
